A study of Mus musculus with 17 samples.

Results

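The Bcl2 family decides whether a cell keeps its mitochondria intact or enters apoptosis, and 8 of its genes were followed here in sorted mouse myeloid cells. They were taken by name: the pro-survival genes Mcl1, Bcl2 and Bcl2l1, the pore-forming effectors Bax and Bak1, and the BH3-only genes Bcl2l11, Bid and Bad. All 8 were found among the 10207 rows of the deposited count table that carry a gene symbol, and all 8 were among the 7518 genes tested.

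Pro-survival members hold the effectors and the BH3-only proteins in check by binding their BH3 segment in a groove. When BH3-only proteins occupy those grooves or engage the effectors directly, Bax and Bak1 assemble in the outer mitochondrial membrane, cytochrome c leaves, and the apoptosome switches on caspases. Neutrophils are short-lived cells whose survival depends strongly on Mcl1, whereas tissue macrophages live longer and receive survival signals through the receptor for macrophage colony-stimulating factor.

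The BH3 segment is the feature that all 8 products share and through which they meet, so its coding DNA is shown for each gene. A search of the translated principal transcripts (GENCODE M21, mm10) for leucine, any 3 residues, glycine or serine, then aspartate gave 1 match in each protein. The codons of the leucine, the glycine or serine, and the aspartate are in capitals. Each stretch has 42 bases, lies in a single coding exon and is written 5′ to 3′ on the coding strand.
Mcl1, chr3:95659424-95659465, plus strand, exon 1: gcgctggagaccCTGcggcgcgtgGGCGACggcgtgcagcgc
Bcl2, chr1:106712572-106712613, minus strand, exon 1: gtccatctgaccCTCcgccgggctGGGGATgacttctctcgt
Bcl2l1, chr2:152829694-152829735, minus strand, exon 2: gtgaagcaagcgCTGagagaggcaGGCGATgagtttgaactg
Bax, chr7:45465994-45466035, minus strand, exon 3: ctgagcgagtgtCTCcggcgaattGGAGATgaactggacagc
Bak1, chr17:27022528-27022569, minus strand, exon 4: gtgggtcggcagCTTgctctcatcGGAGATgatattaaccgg
Bcl2l11, chr2:128147138-128147179, plus strand, exon 3: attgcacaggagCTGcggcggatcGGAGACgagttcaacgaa
Bid, chr6:120897286-120897327, minus strand, exon 4: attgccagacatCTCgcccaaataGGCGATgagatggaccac
Bad, chr19:6950780-6950821, plus strand, exon 3: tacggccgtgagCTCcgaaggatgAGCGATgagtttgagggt
In the Bad match the residue before the aspartate was serine, and in the other 7 it was glycine.

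The libraries compared were 11, all labelled batch 1 and all from female BALB/c mice. TAM (3 libraries) are tumor-associated macrophages, sorted as CD11b+ Gr1- F4/80+ after enrichment for CD45+ cells from orthotopic tumors of 4T1-luc, a luciferase-expressing mammary carcinoma line. BMDM_T (4 libraries) are CD11b+ Gr1+ F4/80low marrow cells of mice that carried such a tumor, and BMDM_H (4 libraries) are cells of the same gate from untreated healthy mice, both labelled as bone marrow-derived monocytes. Tumors were started with 100000 cells in the mammary fat pad and taken at 1 cm. The label age is 8 weeks for TAM and BMDM_T, which the protocol gives as the age at injection, and 12 weeks for BMDM_H, although the design text calls healthy mice age-matched. Tumor and label age cannot be told apart in BMDM_T against BMDM_H. TAM came from collagenase-digested tissue and the marrow cells from flushed bone, so that tissue, sort gate and handling cannot be told apart in TAM against marrow. Nothing in the labels states whether each replicate came from its own mouse, so the p-values below reflect the scatter of these samples, part of which may be technical.

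Total counts were 1748338 to 3747929 in TAM, 931278 to 1218977 in BMDM_T and 387940 to 1286844 in BMDM_H, where replicates 3 and 4 were the shallowest with 556565 and 387940. Levels are given as CPM, which are counts put on a shared library size by trimmed mean of M-values factors. Macrophage markers (7 of 7 detected) summed to 57397 to 71307 CPM in TAM, against 1884 to 2384 in BMDM_T and 2550 to 3495 in BMDM_H. Neutrophil markers (9 of 9 detected) summed to 308 to 539 CPM in TAM, 162180 to 196360 in BMDM_T and 135040 to 208180 in BMDM_H, so the marrow gate labelled as monocytes was led by neutrophil transcripts. Its 5 monocyte markers summed to 1255 to 1836 CPM in BMDM_T and 1871 to 3426 in BMDM_H. Neutrophil precursor markers (4 of 4 detected) reached 6387 to 9211 CPM in BMDM_T against 1704 to 2504 in BMDM_H. Dissociation and stress genes (7 of 7 detected) summed to 4655 to 5198 CPM in TAM, 606 to 1522 in BMDM_T and 1740 to 2044 in BMDM_H. Epithelial and carcinoma markers (6 of 6 detected) summed to 63.4 to 101 CPM in TAM, 11.7 to 33.4 in BMDM_T and 19.7 to 57.2 in BMDM_H, and endothelial markers (2 detected) summed to 56.3 to 88.7 CPM in TAM, 18.3 to 33.4 in BMDM_T and 5.16 to 17.6 in BMDM_H. B lineage markers summed to 6.61 to 13.7 CPM in TAM, where Cd79a, Vpreb3 and Ms4a1 were at 0, against 234 to 412 in BMDM_T and 120.01 to 308 in BMDM_H. T and NK markers (2 detected) summed to 0.551 to 1.05 CPM in TAM, 234 to 295 in BMDM_T and 185 to 301 in BMDM_H. Eosinophil and basophil markers summed to 0.256 to 1.05 CPM in TAM, with Prg2 and Prss34 at 0, 361 to 437 in BMDM_T and 289 to 587 in BMDM_H. Red cell precursor markers summed to 11.02 to 16.1 CPM in TAM, with Slc4a1, Alas2 and Car1 at 0, 6.26 to 21.7 in BMDM_T and 54.5 to 268 in BMDM_H. All these sums lay apart between TAM and marrow, except that the monocyte sum of TAM (1367 to 1535 CPM) and its red cell precursor sum fell within those of BMDM_T. Different genes made up these like sums. Csf1r averaged 1169 CPM in TAM and 167 in BMDM_T, whereas Ly6c2 averaged 6.94 and 1029. Ccr2 and Ms4a4c were also higher on average in TAM than in BMDM_T, and F13a1 was lower. Among red cell precursor genes, Ermap averaged 10.3 CPM in TAM and 0.208 in BMDM_T, and Car2 averaged 3.00 and 7.96. The macrophage, monocyte, neutrophil precursor, red cell precursor, endothelial and stress sums also lay apart between BMDM_T and BMDM_H. Fibroblast markers summed to 5.63 to 24.2 CPM in TAM, 0 to 13.4 in BMDM_T and 0 to 41.3 in BMDM_H, and all groups overlapped. Of the stress genes, Egr1 averaged lower in TAM (125 CPM) than in BMDM_T (284) and BMDM_H (336). The other stress genes averaged higher in TAM than in both, though Fos was near its BMDM_H level (931 against 896 CPM). The part of these lists in the members' differences was not tested. In bulk samples such as these, fewer cells of a type and less RNA per cell cannot be told apart.

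In TAM, Bcl2l1, Bax and Bcl2l11 were higher than in both marrow groups and Bid was lower, while Mcl1, Bak1 and Bad did not pass the test in either comparison. Bcl2 was also called higher, but it reached the level of the low-count filter (10 counts in a library of median size, in at least 3 libraries) in the TAM libraries alone, so its call is no support. The other 7 members reached it in TAM and in marrow alike. A call is an adjusted p under 0.05 in edgeR's quasi-likelihood test, with Benjamini-Hochberg adjustment over all 7518 genes. Against BMDM_T, 4 of 8 members were called higher and 1 lower, beside 30.1% and 28.8% of all genes and 58.9% in either direction. Against BMDM_H the members' counts were again 4 and 1, beside 28% higher, 28.3% lower and 56.3% in either direction. The libraries of the groups did not overlap for 5 of 8 members in each comparison, beside 58.1% of all genes against BMDM_T and 53.8% against BMDM_H. The shares in either direction and without overlap are close to the members' 5 of 8. Without Bcl2, 3 of 7 were called higher and 1 lower in each comparison, beside 31.7% and 24.6% against BMDM_T and 29.8% and 23.4% against BMDM_H of the 5536 genes that reached the filter level both in TAM and in marrow. The median log2 fold change of the members was 0.34 against BMDM_T and 0.72 against BMDM_H, with 0.03 and 0.01 over all genes, and 0.00 and 0.50 without Bcl2. Both comparisons use the same TAM libraries and are therefore not independent.

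Between the marrow groups, 0 of 8 members were called, beside 4.82% of all genes in either direction, 2.82% higher and 2% lower in BMDM_T. In edgeR, 3 members had an unadjusted p under 0.05, namely Mcl1, Bcl2l1 and Bad, and DESeq2 and limma-voom also called 0. The libraries did not overlap for 1 member, Bad, beside 11.2% of all genes. The members' median log2 fold change of BMDM_T over BMDM_H was 0.35, against -0.02 over all genes. Over all genes 212 were higher and 150 lower, whereas scaling by total counts alone gave 156 higher and 218 lower and also called 0 members. Without BMDM_H replicates 3 and 4, Bcl2l1 was called, and without TAM replicate 3, which enters the shared estimate of the spread, Bad was called.

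**Figure D1:**
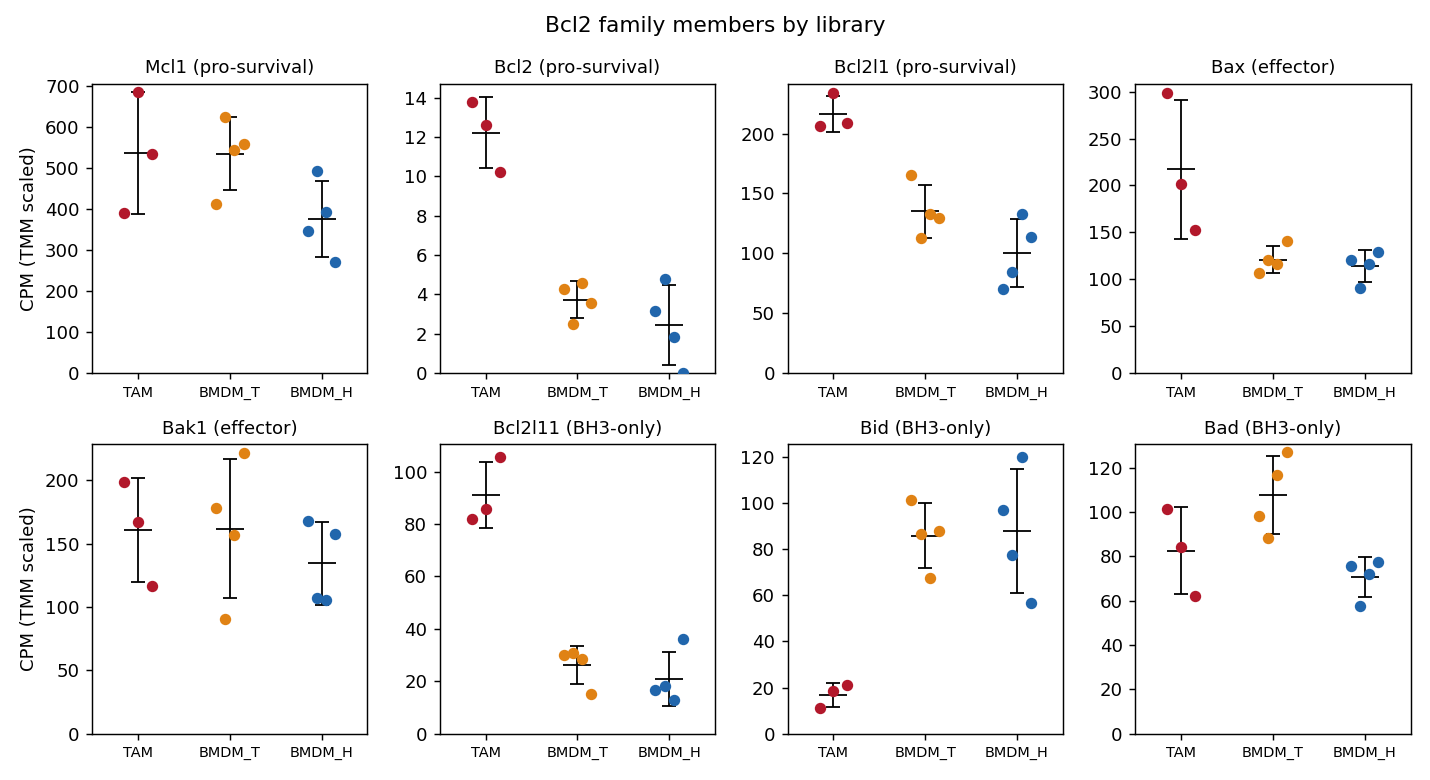
Level of each member (y axis, in CPM) in each library of TAM, BMDM_T and BMDM_H, with points for libraries and lines for the mean and 1 SD. The TAM points lie above all marrow points for Bcl2, Bcl2l1, Bax and Bcl2l11 and below all of them for Bid, and they mix with marrow points for Mcl1, Bak1 and Bad.

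Mcl1 encodes a short-lived pro-survival protein that is turned over by the proteasome. It had 389, 685 and 534 CPM in TAM, 411, 624, 544 and 559 CPM in BMDM_T, and 347, 492, 393 and 271 CPM in BMDM_H. TAM spanned the whole range of BMDM_T, and BMDM_H lay lower with overlap. The log2 fold change of TAM over BMDM_T was 0.00 ± 0.21 (SE, edgeR adjusted p = 0.993), with a 95% interval of -0.44 to 0.45. Over BMDM_H it was 0.50 ± 0.21 for TAM (edgeR adjusted p = 0.0521) and 0.50 ± 0.20 for BMDM_T (edgeR adjusted p = 0.182). The TAM value lay near the threshold and was called in 5 of 19 alternatives. DESeq2 called it (adjusted p = 0.0444), as did edgeR without TAM replicate 1 (0.69, adjusted p = 0.0127) and with the replicate block (0.44, adjusted p = 0.0295). So did edgeR without BMDM_T replicate 1 (0.49, adjusted p = 0.0476) or without BMDM_H replicate 2 (0.65, adjusted p = 0.0195). The other alternatives did not call it. In edgeR it was 0.29 without TAM replicate 2 (adjusted p = 0.313) and 0.34 without BMDM_H replicates 3 and 4 (adjusted p = 0.273).

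Bcl2, the founding pro-survival gene of the family, rested on few counts. It had 25, 24 and 40 counts in TAM, 4, 3, 4 and 4 in BMDM_T, and 4, 6, 1 and 0 in BMDM_H. These are 13.8, 12.6 and 10.2 CPM in TAM, 4.27, 2.5, 4.58 and 3.58 CPM in BMDM_T, and 3.16, 4.79, 1.85 and 0 CPM in BMDM_H. In BMDM_H replicate 4 a count of 0 allows up to 3 counts, or 7.74 CPM, which covers counting error only. All TAM libraries lay above all marrow libraries. The log2 fold change was 1.70 ± 0.42 over BMDM_T (SE, edgeR adjusted p = 0.00153) and 1.92 ± 0.46 over BMDM_H (edgeR adjusted p = 0.00114). Since Bcl2 passed the filter only through TAM, it had to differ to be tested at all, and after thinning every library to the lowest total it was no longer tested. Between BMDM_T and BMDM_H the value was 0.23 ± 0.57 (edgeR adjusted p = 0.913), an interval of -0.96 to 1.42, and a difference was not detectable at this depth.

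Bcl2l1 encodes Bcl-xL, the pro-survival protein that guards many long-lived cells, and a shorter splice form that promotes death. Gene-level counts do not separate the splice forms. It had 206, 234 and 209 CPM in TAM, 166, 113, 133 and 129.7 CPM in BMDM_T, and 70.3, 84.6, 133 and 114 CPM in BMDM_H. TAM lay above every marrow library, and the marrow groups overlapped. Bcl2l1 rose in TAM by a log2 fold change of 0.68 ± 0.19 over BMDM_T (SE, edgeR adjusted p = 0.00382) and 1.16 ± 0.20 over BMDM_H (edgeR adjusted p = 4.33e-05). BMDM_T over BMDM_H was 0.48 ± 0.19 (edgeR adjusted p = 0.18). In BMDM_H the shallow replicates 3 and 4 held the higher values, and without them the difference was 0.80 ± 0.20 (edgeR adjusted p = 0.0451). This was the 1 call in 19 alternatives, and without BMDM_H replicate 1 the difference was 0.33 (edgeR adjusted p = 0.421).

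Bax, an effector that moves from the cytosol to mitochondria when activated, had 298, 202 and 152 CPM in TAM, 107, 121, 116 and 140.5 CPM in BMDM_T, and 121, 90.2, 116 and 129 CPM in BMDM_H. The lowest TAM library stood just above the highest marrow library, and the spread within TAM was the widest of the 3 groups. Bax rose in TAM by 0.83 ± 0.20 on the log2 scale over BMDM_T (SE, edgeR adjusted p = 0.00126) and by 0.94 ± 0.20 over BMDM_H (edgeR adjusted p = 0.000616). The marrow groups differed by 0.11 ± 0.20 (edgeR adjusted p = 0.849).

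Bak1, the effector that resides in the mitochondrial membrane, had 198, 167 and 117 CPM in TAM, 178, 90.9, 157 and 222 CPM in BMDM_T, and 168, 107, 105 and 157 CPM in BMDM_H. All groups overlapped. The log2 fold changes were -0.02 ± 0.25 for TAM over BMDM_T (SE, edgeR adjusted p = 0.96), 0.25 ± 0.25 for TAM over BMDM_H (edgeR adjusted p = 0.411) and 0.27 ± 0.24 for BMDM_T over BMDM_H (edgeR adjusted p = 0.63). Their 95% intervals ran from -0.53 to 0.50, from -0.27 to 0.78 and from -0.24 to 0.77. Intervals of this width do not show equal levels.

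Bcl2l11 encodes Bim, a BH3-only protein that binds all pro-survival members and is classically induced when survival cytokines are withdrawn. It had 82.1, 85.8 and 106 CPM in TAM, 29.9, 30.8, 28.6 and 15.2 CPM in BMDM_T, and 16.6, 18.4, 12.9 and 36.1 CPM in BMDM_H. The lowest TAM library lay well above the highest marrow library, which was BMDM_H replicate 4. Bcl2l11 averaged 91.2 ± 12.7 CPM in TAM (SD, n = 3), 26.1 ± 7.35 CPM in BMDM_T and 21.0 ± 10.3 CPM in BMDM_H (SD, n = 4 each). It was 3.51-fold higher in TAM than in BMDM_T (log2 1.81 ± 0.24 SE, edgeR adjusted p = 2.27e-06) and 4.72-fold higher than in BMDM_H (log2 2.24 ± 0.27 SE, edgeR adjusted p = 5.22e-07). By size these changes ranked 1485 and 997 among the 7518 genes. The marrow groups differed by 0.43 ± 0.30 (edgeR adjusted p = 0.502).

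Bid, the BH3-only protein that caspase 8 cleaves to carry a death receptor signal to mitochondria, was the member that fell. It had 11.02, 18.4 and 21.2 CPM in TAM, 101, 86.7, 67.6 and 87.7 CPM in BMDM_T, and 97.1, 77.4, 119.9 and 56.8 CPM in BMDM_H. The highest TAM library lay far below the lowest marrow library. Bid averaged 16.9 ± 5.27 CPM in TAM (SD, n = 3), 85.9 ± 13.9 CPM in BMDM_T and 87.8 ± 27.0 CPM in BMDM_H (SD, n = 4 each). It was 4.92-fold lower in TAM than in BMDM_T (log2 -2.30 ± 0.25 SE, edgeR adjusted p = 1.32e-07) and 5.08-fold lower than in BMDM_H (log2 -2.35 ± 0.26 SE, edgeR adjusted p = 1.47e-07). These changes ranked 1059 and 926 by size. Between the marrow groups the value was -0.05 ± 0.22 (edgeR adjusted p = 0.949), with an interval of -0.50 to 0.41.

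Bad, a BH3-only protein that survival kinases phosphorylate and park on 14-3-3 proteins, had 101, 84.2 and 62.2 CPM in TAM, 98.3, 88.4, 117 and 127 CPM in BMDM_T, and 75.8, 57.5, 72.0 and 77.4 CPM in BMDM_H. Every BMDM_T library lay above every BMDM_H library, and TAM overlapped with both. The log2 fold change of BMDM_T over BMDM_H was 0.62 ± 0.19 (SE, edgeR adjusted p = 0.0695). Of 19 alternatives, 1 called it, edgeR without TAM replicate 3 (0.64 ± 0.18, adjusted p = 0.0375). Without BMDM_H replicate 2 it was 0.53 (edgeR adjusted p = 0.228). TAM over BMDM_T was -0.39 ± 0.19 (edgeR adjusted p = 0.0811) and TAM over BMDM_H 0.23 ± 0.20 (edgeR adjusted p = 0.342). The TAM over BMDM_T value was called in 2 of 19 alternatives, edgeR without TAM replicate 1 (-0.57, adjusted p = 0.0242) or without BMDM_T replicate 2 (-0.49, adjusted p = 0.0427). Without TAM replicate 3 it was -0.23 (edgeR adjusted p = 0.347).

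**Figure D2:**
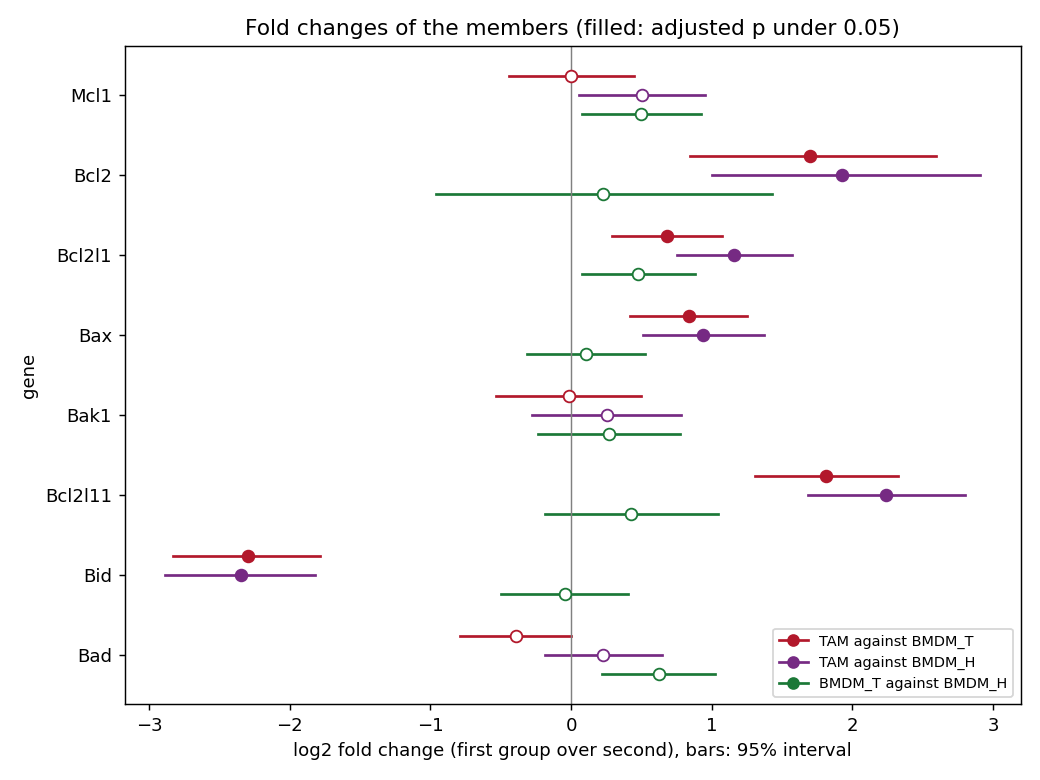
Log2 fold changes of the 8 members (x axis) in TAM against BMDM_T, TAM against BMDM_H and BMDM_T against BMDM_H, with 95% intervals as bars and filled points for adjusted p under 0.05. Bcl2l11 and Bid stand farthest from 0 in opposite directions in the TAM comparisons, at 1.81 and -2.30 against BMDM_T, and no BMDM_T against BMDM_H point is filled.

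Bcl2l11 and Bid had the lowest adjusted p-values among the members in both TAM comparisons, and both are BH3-only genes. The 250 bases before their RefSeq start (mm10) are shown because these members moved most and in opposite directions. Capitals mark matches, on either strand, to the FOXO motif GTAAACA, the STAT motif TTCNNNGAA, the ETS motif CGGAAG, the E-box CACGTG, the GC box GGGCGG or the CCAAT box CCAAT. The GC box and the ETS motif can overlap by their shared letters. The Bcl2l11 window ends directly before the annotated gene start, and the table lists another start for this gene.
Bcl2l11, chr2:128125788-128126037, plus strand: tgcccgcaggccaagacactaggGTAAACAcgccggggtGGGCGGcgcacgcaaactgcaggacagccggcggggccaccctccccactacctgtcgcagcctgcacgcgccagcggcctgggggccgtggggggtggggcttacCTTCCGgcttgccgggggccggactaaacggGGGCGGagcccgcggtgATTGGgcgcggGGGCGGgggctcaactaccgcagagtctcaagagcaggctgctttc
Bid, chr6:120916825-120917074, minus strand: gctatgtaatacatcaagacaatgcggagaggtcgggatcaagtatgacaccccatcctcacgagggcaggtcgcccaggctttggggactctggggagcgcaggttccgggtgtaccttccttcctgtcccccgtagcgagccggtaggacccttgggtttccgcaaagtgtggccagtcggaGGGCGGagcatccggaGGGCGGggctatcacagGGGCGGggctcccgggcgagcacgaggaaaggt
The Bcl2l11 window held 1 FOXO, 1 ETS and 1 CCAAT match and 3 GC box matches, and the Bid window held 3 GC box matches alone. Of 32851 promoter windows of the same length, 3.17% held the FOXO motif, 7.02% STAT, 13.6% ETS, 6.02% the E-box, 32.7% the GC box and 33.8% the CCAAT box. A match is a description of the letters and not a site of binding.

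**Figure D3:**
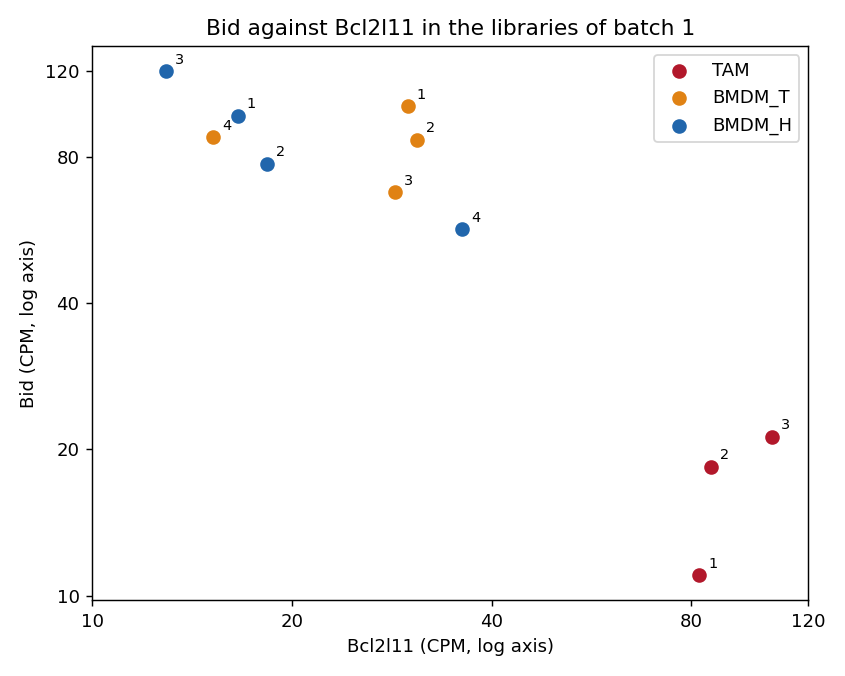
Bid (y axis) against Bcl2l11 (x axis), both in CPM on log axes, for the 3 TAM, 4 BMDM_T and 4 BMDM_H libraries, numbered by replicate. TAM libraries lie at the lower right, with Bid at 11.02 to 21.2 CPM and Bcl2l11 at 82.1 to 106 CPM, and marrow libraries lie at the upper left with BMDM_T and BMDM_H mixed.

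Because the libraries form 2 separate clusters in this plot, no correlation is given over all of them. Within a library, ratios of counts do not depend on depth. The ratio of Bid to Bax counts was 0.0370 to 0.140 in TAM, against 0.584 to 0.950 in BMDM_T and 0.440 to 1.03 in BMDM_H, with no overlap between TAM and marrow. Since Bid was lower and Bax higher in every TAM library than in any marrow library, this ratio had to lie apart and adds nothing to them. Bcl2l11 over Mcl1 was 0.125 to 0.211 in TAM, 0.0272 to 0.0727 in BMDM_T and 0.0329 to 0.133 in BMDM_H, where the highest BMDM_H library overlapped with TAM. Bcl2l11 over Bcl2l1 was 0.367 to 0.505 in TAM, 0.117 to 0.274 in BMDM_T and 0.0972 to 0.318 in BMDM_H, without overlap. Bax over Bcl2l1 was 0.726 to 1.45 in TAM, 0.645 to 1.08 in BMDM_T and 0.875 to 1.72 in BMDM_H, so all groups overlapped although both genes rose. Bak1 over Bax was 0.665 to 0.830 in TAM, 0.752 to 1.67 in BMDM_T and 0.905 to 1.39 in BMDM_H. Here TAM overlapped with BMDM_T but not with BMDM_H. Mcl1 over Bcl2l1 was 1.89 to 2.93 in TAM, 2.48 to 5.55 in BMDM_T and 2.39 to 5.81 in BMDM_H, and all groups overlapped. Transcripts of different length and 3′ end are counted with different efficiency, and a ratio therefore compares libraries, not the amounts of the proteins.

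Members also varied within groups. Replicate 1 was the highest of the 3 TAM libraries for Bcl2, Bax, Bak1 and Bad and the lowest for Mcl1, Bcl2l1, Bcl2l11 and Bid. Replicate 3, the deepest TAM library, was the lowest for Bcl2, Bax, Bak1 and Bad. Within BMDM_H, replicate 4 was the highest for Bax, Bcl2l11 and Bad and the lowest for Mcl1, Bcl2 and Bid, and it had the smallest total count. The part of depth in these patterns was not tested.

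Some member loci overlap other genes, and the strand setting of the counting is not given in the sources used here. The 3′ end of Bid (chr6:120891930-120916853, minus strand) overlaps the antisense gene Bcl2l13 over 913 bases, and reads from such a stretch cannot be told apart without strand. Away from that end it overlaps 2 further annotated genes. Bcl2l13 had 3.11 ± 1.18 CPM in TAM (SD, n = 3), 10.2 ± 3.36 CPM in BMDM_T and 9.74 ± 6.20 CPM in BMDM_H (SD, n = 4 each), and passed the filter only through marrow. Bak1 (chr17:27019810-27029009, minus strand) lies wholly inside the antisense gene Ggnbp1, which had 3.07 ± 0.82 CPM in TAM (SD, n = 3), 12.5 ± 2.63 CPM in BMDM_T and 11.8 ± 5.05 CPM in BMDM_H (SD, n = 4 each). Bad (chr19:6941861-6951899, plus strand) shares 620 bases at its 5′ end with the antisense gene Gpr137, which was not called in any comparison. Bax (chr7:45461697-45466898, minus strand) shares 915 bases at its 5′ end with Gm45808 on the same strand. Counts of these members are uncertain to that extent. Mcl1 (chr3:95658788-95663176, plus strand), Bcl2l1 (chr2:152780668-152831728, minus strand) and Bcl2l11 (chr2:128126038-128162547, plus strand) overlap no other annotated gene. The long Bcl2 gene (chr1:106538178-106714274, minus strand) overlaps 3 other annotated genes away from its 3′ end.

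Counts over the other apoptosis lists are set beside the share of all genes called in either direction. Some counts are limited to genes that reached the filter level both in TAM and in marrow. Of the 5536 such genes, 56.3% were called against BMDM_T and 53.2% against BMDM_H. The rest of the family was represented by 9 tested genes of 18 listed. In TAM, 4 were called higher and 2 lower against BMDM_T (58.9% of all genes), and 4 higher and 3 lower against BMDM_H (56.3%), with median log2 fold changes of 0.79 and 0.73. Of the 5 that reached the filter level both in TAM and in marrow, 2 were higher and 1 lower against BMDM_T, and 2 and 2 against BMDM_H. The pro-survival paralogs Bcl2a1a and Bcl2a1b stood out by size. Bcl2a1a had 97.7 ± 6.68 CPM in TAM (SD, n = 3), 2.20 ± 1.99 CPM in BMDM_T and 4.74 ± 3.18 CPM in BMDM_H (SD, n = 4 each). These paralogs are near-identical and reads may be split between them, so their split is uncertain. Summed over Bcl2a1 genes, the level was 195 ± 23.6 CPM in TAM (SD, n = 3), 5.43 ± 3.83 CPM in BMDM_T and 13.5 ± 7.04 CPM in BMDM_H (SD, n = 4 each). Bcl2a1a and Bcl2a1b passed the filter only through TAM, so no test of them is given. Bcl2a1b had 127 to 393 counts in TAM libraries, against 1 to 8 in BMDM_T and 3 to 8 in BMDM_H.

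Bnip3, a mitochondrial BH3-like protein that marks mitochondria for removal, had 84.4 ± 33.0 CPM in TAM (SD, n = 3), 24.1 ± 8.92 CPM in BMDM_T and 6.71 ± 1.20 CPM in BMDM_H (SD, n = 4 each). It was the family gene outside the members that was called in all 3 comparisons. Its BMDM_T over BMDM_H log2 fold change was 1.77 ± 0.39 (SE, edgeR adjusted p = 0.00886), which limma-voom did not call (adjusted p = 0.0624), nor did edgeR without BMDM_H replicates 3 and 4 (adjusted p = 0.0622). Pmaip1, which encodes the BH3-only protein Noxa and was singled out after its values were seen, had 52.1 ± 15.2 CPM in TAM (SD, n = 3), 18.8 ± 3.52 CPM in BMDM_T and 14.5 ± 4.66 CPM in BMDM_H (SD, n = 4 each). It rose in TAM by a log2 fold change of 1.45 ± 0.26 over BMDM_T (SE, edgeR adjusted p = 7.45e-05) and 1.97 ± 0.29 over BMDM_H (edgeR adjusted p = 8.07e-06). Bnip3l, a relative of Bnip3 also singled out afterwards, went the other way. It had 11.7 ± 2.78 CPM in TAM (SD, n = 3), 48.0 ± 41.8 CPM in BMDM_T and 40.4 ± 14.7 CPM in BMDM_H (SD, n = 4 each). Against BMDM_T it was called lower in TAM (log2 -2.06 ± 0.49 SE, edgeR adjusted p = 0.00113).

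Downstream of the members, 11 apoptosome and caspase genes were tested. In each TAM comparison 3 were called higher and 3 lower, beside 58.9% of all genes called against BMDM_T and 56.3% against BMDM_H (3 and 2 of the 7 genes that reached the filter level both in TAM and in marrow), with medians of -0.20 against BMDM_T and -0.12 against BMDM_H on the log2 scale. Apaf1, the scaffold of the apoptosome, had 35.3 ± 3.65 CPM in TAM (SD, n = 3), 74.4 ± 8.96 CPM in BMDM_T and 69.3 ± 11.2 CPM in BMDM_H (SD, n = 4 each). Apaf1 fell in TAM by 1.07 ± 0.18 (log2, SE) relative to BMDM_T (edgeR adjusted p = 4.18e-05). Endog, a mitochondrial nuclease, rose by 1.90 ± 0.38 over BMDM_T (SE, edgeR adjusted p = 0.000249), and the effector caspase gene Casp6 by 1.29 ± 0.28 over BMDM_H (edgeR adjusted p = 0.000605).

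Among the 5 tested inhibitor of apoptosis genes, 1 was higher and 1 lower in each TAM comparison, and 1 was lower in BMDM_T than in BMDM_H, beside 58.9%, 56.3% and 4.82% of all genes called. The list's median log2 fold changes were 0.09 for TAM over BMDM_T, -0.09 for TAM over BMDM_H and -0.05 for BMDM_T over BMDM_H. Birc5, whose product survivin also serves in cell division, had 112 ± 11.9 CPM in TAM (SD, n = 3), 337 ± 64.5 CPM in BMDM_T and 329 ± 44.8 CPM in BMDM_H (SD, n = 4 each). Proliferation markers (5 of 5 detected) summed to 162 to 218 CPM in TAM, 580.0 to 730.1 in BMDM_T and 498 to 723 in BMDM_H, and their part in the Birc5 difference was not tested. Naip5, a sensor of bacterial flagellin, had 11.7 ± 2.65 CPM in TAM (SD, n = 3), 4.17 ± 1.11 CPM in BMDM_T and 13.7 ± 4.59 CPM in BMDM_H (SD, n = 4 each), and was lower in BMDM_T than in BMDM_H (log2 -1.75 ± 0.40 SE, edgeR adjusted p = 0.0103). Birc3, a ubiquitin ligase of the family, had 59.8 ± 6.13 CPM in TAM (SD, n = 3), 56.2 ± 9.69 CPM in BMDM_T and 37.4 ± 5.60 CPM in BMDM_H (SD, n = 4 each). Its TAM over BMDM_H call (log2 0.71 ± 0.20 SE, edgeR adjusted p = 0.00516) was lost after thinning to the lowest total (0.25, adjusted p = 0.558).

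Of 9 death receptor pathway genes tested, 3 were higher and 3 lower in TAM against BMDM_T, and 2 higher and 3 lower against BMDM_H, beside 58.9% and 56.3% of all genes called, with median log2 fold changes of -0.42 and -0.18. Of the 8 that reached the filter level both in TAM and in marrow, 3 were higher and 2 lower against BMDM_T, and 2 and 2 against BMDM_H. The necroptosis genes Ripk3 and Mlkl were among those higher in TAM. Ripk3, the kinase, had 97.7 ± 20.5 CPM in TAM (SD, n = 3), 35.8 ± 10.9 CPM in BMDM_T and 23.1 ± 9.84 CPM in BMDM_H (SD, n = 4 each). Mlkl, its membrane-lysing substrate, had 39.0 ± 8.34 CPM in TAM (SD, n = 3), 8.92 ± 1.04 CPM in BMDM_T and 10.9 ± 5.50 CPM in BMDM_H (SD, n = 4 each). Fas, a death receptor whose signal runs through caspase 8 toward Bid, had 3.96 ± 0.72 CPM in TAM (SD, n = 3), 15.7 ± 5.40 CPM in BMDM_T and 8.21 ± 3.45 CPM in BMDM_H (SD, n = 4 each). Fas passed the filter only through marrow, so no test of it is given. Tnf, the ligand of the tumor necrosis factor receptors, had 36.1 ± 6.45 CPM in TAM (SD, n = 3), 48.0 ± 8.13 CPM in BMDM_T and 64.2 ± 10.7 CPM in BMDM_H (SD, n = 4 each), and was lower in TAM than in BMDM_H (log2 -0.86 ± 0.21 SE, edgeR adjusted p = 0.00141).

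Mitochondrial and endoplasmic reticulum partners gave 2 higher and 3 lower of 12 in TAM against BMDM_T, and 2 and 2 against BMDM_H, beside 58.9% and 56.3% of all genes called, with median log2 fold changes of 0.20 and 0.12. The channel gene Vdac1, whose relative Vdac2 recruits Bak1, had 166 ± 10.7 CPM in TAM (SD, n = 3), 102 ± 16 CPM in BMDM_T and 89.7 ± 28.2 CPM in BMDM_H (SD, n = 4 each), and its call against BMDM_T was lost after thinning (log2 0.53, edgeR adjusted p = 0.0587). Vdac2 had 404 ± 54.1 CPM in TAM (SD, n = 3), 265 ± 16.3 CPM in BMDM_T and 255 ± 65.4 CPM in BMDM_H (SD, n = 4 each). Vdac2 was called against BMDM_H (log2 0.64 ± 0.19 SE, edgeR adjusted p = 0.00609), a call that did not hold without BMDM_H replicates 3 and 4 (0.41, adjusted p = 0.0732). Fis1, a fission factor, had 164 ± 23.6 CPM in TAM (SD, n = 3), 455 ± 70.4 CPM in BMDM_T and 477 ± 41.9 CPM in BMDM_H (SD, n = 4 each). Tspo, an outer membrane protein, had 1723 ± 66.0 CPM in TAM (SD, n = 3), 4099 ± 513 CPM in BMDM_T and 1721 ± 179 CPM in BMDM_H (SD, n = 4 each), and was higher in BMDM_T than in BMDM_H (log2 1.25 ± 0.16 SE, edgeR adjusted p = 3.53e-05).

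Of 8 tested genes of the p53 list, 2 were higher and 3 lower in TAM against BMDM_T, and 2 higher and 1 lower against BMDM_H, beside 58.9% and 56.3% of all genes called, with median log2 fold changes of -0.31 and -0.48. Of the 5 that reached the filter level on both sides, 2 were higher and 1 lower against BMDM_T, and 2 and 0 against BMDM_H. Cdkn1a, the cell cycle inhibitor p21, had 1291 ± 65.8 CPM in TAM (SD, n = 3), 48.7 ± 14.9 CPM in BMDM_T and 86.3 ± 22.7 CPM in BMDM_H (SD, n = 4 each). It was 26.5-fold higher in TAM than in BMDM_T and 14.5-fold higher than in BMDM_H (edgeR adjusted p = 9.00e-13 and 1.23e-11). Between the marrow groups Cdkn1a was lower in BMDM_T (log2 -0.87 ± 0.22 SE, edgeR adjusted p = 0.0259), a call lost without BMDM_T replicate 1 or 4 or BMDM_H replicate 1 or 2, with adjusted p-values of 0.0948, 0.09, 0.121 and 0.0761, and after thinning (log2 -0.73, adjusted p = 0.110). Bax, itself a p53 target, rose by 0.83 and 0.94 on the log2 scale, as given above. The part of p53 in these differences was not tested. Sesn1, a stress-induced sestrin, had 69.9 ± 5.66 CPM in TAM (SD, n = 3), 27.5 ± 7.02 CPM in BMDM_T and 35.9 ± 5.89 CPM in BMDM_H (SD, n = 4 each). Trp53inp1 had 1 count in all TAM libraries together, against 92 in BMDM_T and 26 in BMDM_H. Scaled by library size it was 170.0-fold lower in TAM than in BMDM_T (95% counting interval 29.8 to 6785), and 43.0-fold lower (6.79 to 1792) without BMDM_T replicate 1, which held most of the counts. These intervals cover counting error only and not the spread between libraries, so they are not a test. Trp53inp1 passed the filter only through marrow, so no test of it is given.

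Upstream of Bad and Bcl2l11, 18 kinase, 14-3-3 and FOXO genes were tested, with 4 higher and 8 lower in TAM against BMDM_T and 5 higher and 7 lower against BMDM_H, beside 58.9% and 56.3% of all genes called. Among the 15 that reached the filter level in TAM and in marrow, 4 were higher and 6 lower against BMDM_T, and 5 and 6 against BMDM_H. The medians on the log2 scale were -0.51 and -0.46. Pim3, a kinase that phosphorylates Bad, had 227 ± 45.2 CPM in TAM (SD, n = 3), 21.0 ± 9.68 CPM in BMDM_T and 38.8 ± 15.1 CPM in BMDM_H (SD, n = 4 each). Its relative Pim1 had 153 ± 37.3 CPM in TAM (SD, n = 3), 149 ± 60.2 CPM in BMDM_T and 67.0 ± 8.59 CPM in BMDM_H (SD, n = 4 each). Pim1 was higher in BMDM_T than in BMDM_H (log2 1.14 ± 0.26 SE, edgeR adjusted p = 0.0117), which was not called without BMDM_H replicates 3 and 4 (adjusted p = 0.108) or by limma-voom (adjusted p = 0.0506). Akt2, another Bad kinase, fell in TAM to 10.8 ± 0.44 CPM (SD, n = 3), against 30.7 ± 3.70 CPM in BMDM_T and 25.4 ± 5.18 CPM in BMDM_H (SD, n = 4 each). Pik3cd, the leukocyte PI3 kinase subunit upstream of Akt, had 189 ± 32.3 CPM in TAM (SD, n = 3), 504 ± 49.8 CPM in BMDM_T and 358 ± 66.1 CPM in BMDM_H (SD, n = 4 each). Ppp3ca, the calcineurin subunit that removes phosphate from Bad, had 16.6 ± 1.77 CPM in TAM (SD, n = 3), 38.9 ± 4.39 CPM in BMDM_T and 43.7 ± 14 CPM in BMDM_H (SD, n = 4 each). Rps6ka1, a ribosomal S6 kinase that phosphorylates Bad, had 170.2 ± 18.0 CPM in TAM (SD, n = 3), 340.0 ± 54.9 CPM in BMDM_T and 368 ± 47.1 CPM in BMDM_H (SD, n = 4 each). For Mcl1 turnover, only the ubiquitin ligase genes Huwe1 and Fbxw7 were tested, and Huwe1 gave 0.65 ± 0.35 for TAM over BMDM_T (log2, SE, edgeR adjusted p = 0.116). Fbxw7 passed the filter only through marrow, so no test of it is given.

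Survival cytokine receptors and STATs gave 3 higher and 5 lower of 12 in TAM against BMDM_T, 4 and 5 against BMDM_H, and 4 and 1 in BMDM_T against BMDM_H, beside 58.9%, 56.3% and 4.82% of all genes called. The medians of these log2 fold changes were -0.35, -0.24 and 0.01. Csf1r, the macrophage survival receptor, had 1169 ± 83.6 CPM in TAM (SD, n = 3), 167 ± 27.5 CPM in BMDM_T and 166 ± 37.5 CPM in BMDM_H (SD, n = 4 each). Csf3r, the granulocyte colony-stimulating factor receptor, had 33.1 ± 5.29 CPM in TAM (SD, n = 3), 620.3 ± 175 CPM in BMDM_T and 345 ± 138 CPM in BMDM_H (SD, n = 4 each). Macrophage marker sums were likewise higher and neutrophil marker sums lower in TAM than in marrow, and their part was not tested. Between BMDM_T and BMDM_H the neutrophil sums overlapped and the macrophage sums did not. Csf2rb, the shared beta chain of the GM-CSF receptor, had 284 ± 25.9 CPM in TAM (SD, n = 3), 228 ± 50.3 CPM in BMDM_T and 117 ± 35.7 CPM in BMDM_H (SD, n = 4 each). Its BMDM_T over BMDM_H log2 fold change was 0.91 ± 0.20 (SE, edgeR adjusted p = 0.00855), and 0.63 without BMDM_H replicates 3 and 4, when it was not called (adjusted p = 0.126). Csf2rb2, the beta chain paralog used for interleukin 3 in mice, had 70.4 ± 15.4 CPM in TAM (SD, n = 3), 23.3 ± 5.39 CPM in BMDM_T and 7.29 ± 1.78 CPM in BMDM_H (SD, n = 4 each), and its BMDM_T over BMDM_H call (log2 1.62 ± 0.32 SE, edgeR adjusted p = 0.00368) was lost after thinning (adjusted p = 0.108). These paralogs are similar in sequence, and the split of reads between them is uncertain. Il10ra, the interleukin 10 receptor chain, had 279 ± 17.4 CPM in TAM (SD, n = 3), 84.2 ± 6.79 CPM in BMDM_T and 138 ± 31.2 CPM in BMDM_H (SD, n = 4 each). Its lower level in BMDM_T than in BMDM_H (log2 -0.71 ± 0.18 SE, edgeR adjusted p = 0.0201) was not called without BMDM_T replicate 2 (adjusted p = 0.0669), BMDM_H replicate 1 (adjusted p = 0.105), BMDM_H replicate 4 (adjusted p = 0.0515) or BMDM_H replicates 3 and 4 together (adjusted p = 0.113).

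**Figure D4:**
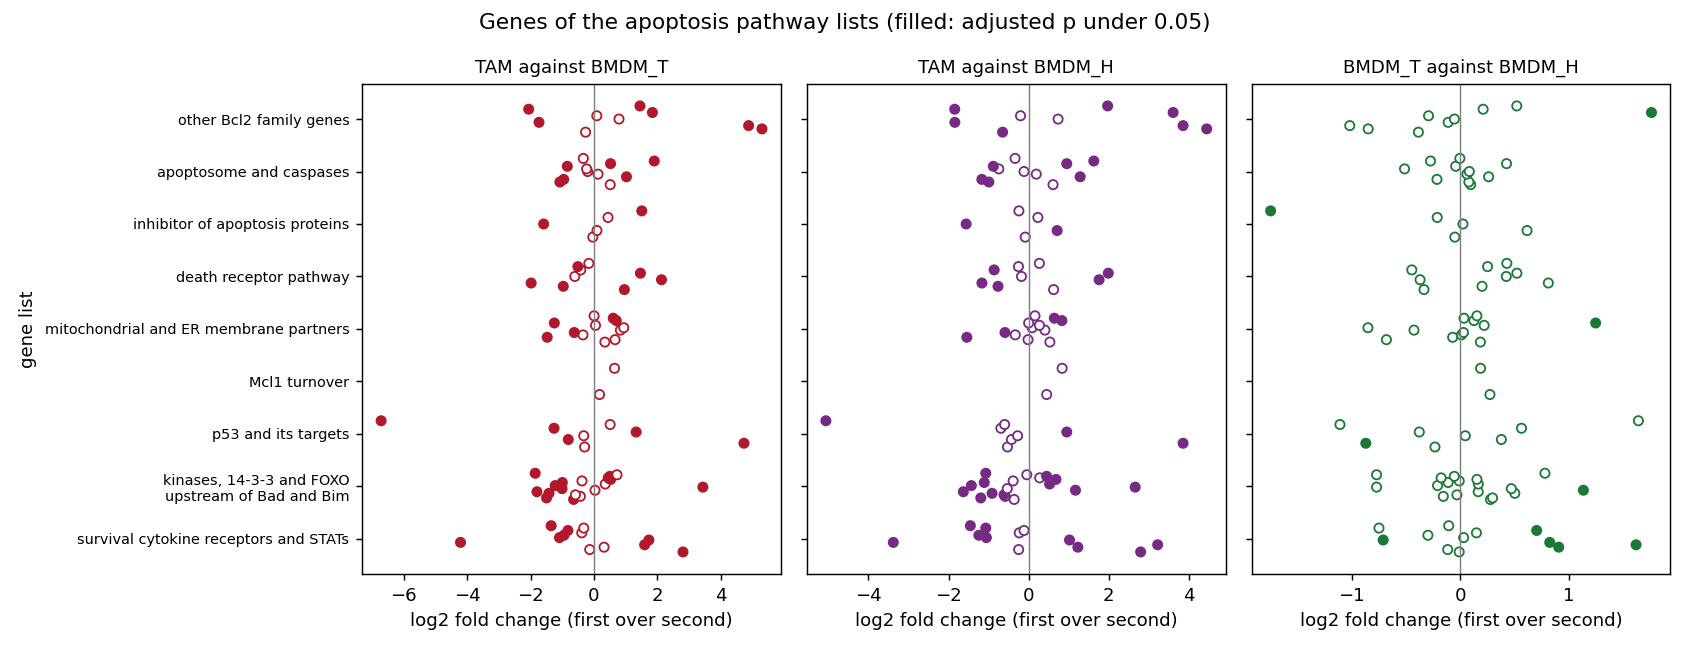
Log2 fold changes (x axis) of the tested genes of 9 apoptosis pathway lists (rows) in TAM against BMDM_T, TAM against BMDM_H and BMDM_T against BMDM_H, with filled points for adjusted p under 0.05. Filled points lie on both sides of 0 in most lists in the TAM panels, and few points are filled in the BMDM_T against BMDM_H panel, such as Bnip3 at 1.77.

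The genes whose levels followed each member most closely were sought by Pearson's r of log2 CPM over the 11 libraries, among 3905 other genes of at least 30 CPM on average (3906 for Bcl2). The libraries share their group and depth, so r is a description. Much of r can reflect the difference between TAM and marrow, and this part was not tested. Bcl2 had at most 6 counts in any marrow library and passed the filter only through TAM, so its r values are no support. Bid was nearest to Cdkn3 (r = 0.986), a phosphatase of the cell cycle, Cyfip2 (0.986) and Stk38 (0.981). Bcl2l11 was nearest to Timm17a (0.958), Tpst2 (0.948) and the integrin gene Itgax (0.945). Bax was nearest to Uap1l1 (0.976), the proteasome gene Psmb6 (0.961) and Bsg (0.951), Bcl2 to Gaa (0.969) and the NF-kB pathway genes Relb (0.963) and Nfkbib (0.948), and Bcl2l1 to Klc4 (0.942), Unc45a (0.935) and Tars2 (0.929). Bak1 was nearest to Eif3h (0.937), Ap2s1 (0.877) and Aprt (0.855), Mcl1 to Smim11 (0.919), Gtf2h5 (0.903) and Scap (0.894), and Bad to Edem2 (0.909), Tmem256 (0.902) and the glycolysis gene Pkm (0.892).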

How the data were processed

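RNA of sorted mouse myeloid cells was read as 3′-end libraries with molecular identifiers, per the labels' protocols. The authors deposited raw counts in a table of 24421 rows, made with bcl2fastq, STAR 2.4.2a and HTSeq on mm10, per the submitters' processing notes. The sources used here give neither the annotation nor the strand setting, nor whether identifiers were collapsed. Symbols fill 10207 rows. Over those rows, batch 1 and batch 2 libraries had Spearman correlations of -0.02 to 0.00 in 66 pairs, so the 6 batch 2 libraries (BMDM_H replicates 5 to 8 and mammary gland macrophages) do not follow the symbols and were not used. 17 symbols had become dates.

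A single fit over the 11 batch 1 libraries used edgeR 4.0.16 in R 4.3.3 with filterByExpr, trimmed mean of M-values (TMM) factors, estimateDisp, glmQLFit and glmQLFTest. Genes with a Benjamini-Hochberg adjusted p under 0.05 were called. SE is the log2 fold change over the root of the quasi-likelihood F. CPM use TMM factors and refer to the rows with a symbol. The scripts were tested on simulated data. Totals of 387940 to 3747929 counts limit the precision of low genes. Replicates differed beyond sampling noise in all 15 pairs (chi-square per degree of freedom 3.07 to 16.3).

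The members and lists were chosen with earlier results of these data known. From each list and comparison, up to 3 called genes with the smallest p and at least 10 counts in the higher group are named, with the 3 genes most like each member. Some items are not reported here. Deviations from the group means correlated across genes between BMDM_T and BMDM_H libraries of the same number (r = 0.22, 0.242, 0.133 and 0.132, over the limit of 0.1), and the labels do not say what they share. Alternatives were DESeq2 1.42.0, limma-voom (limma 3.58.1), total counts, no filter, replicate block, only the compared groups, thinning to the lowest total, and leaving out libraries. Promoter sequences are from RefSeq and coding sequences from GENCODE M21.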

Additional observations from a re-analysis of the deposited data

Results flagged for a closer look

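Groups of 4 libraries were screened for a library far from the other 3, for the 8 members and the named pathway genes, 40 genes in 80 gene and group pairs. Chance alone gives about 1 in 20, and 5 pairs were found. Bcl2l11 had 15.2 CPM in BMDM_T replicate 4, against 28.6 to 30.8 CPM in the other BMDM_T libraries. Vdac1 had 125.9 CPM in BMDM_T replicate 2, against 92.2 to 96.1 CPM in the others. Trp53inp1 had 79.0 CPM in BMDM_T replicate 1, against 2.29 to 11.6 CPM. Csf2rb had 303 CPM in BMDM_T replicate 1, against 198 to 208 CPM. Csf3r had 549.5 CPM in BMDM_H replicate 1, against 258 to 304 CPM.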

How the results depend on the processing

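Bcl2l1, Bax, Bcl2l11 and Bid kept direction and call in both TAM comparisons in all 19 alternatives. Bcl2 was not tested after thinning and kept its call in the other 18. This is no support, since Bcl2 passed the main filter only through TAM. The member counts below include Bcl2 where it was tested. With the replicate block, 467 genes were called in BMDM_T against BMDM_H, 4387 in TAM against BMDM_T and 4263 in TAM against BMDM_H, against 362, 4431 and 4233 without it. It called 0, 5 and 6 members, since Mcl1 was called in TAM against BMDM_H (0.44, adjusted p = 0.0295), and changed no other member's call. In BMDM_T against BMDM_H, edgeR with the block gave 0.51 for Mcl1 (adjusted p = 0.0547) and 0.61 for Bad (adjusted p = 0.0527), both near the threshold. Same-numbered libraries of TAM and marrow did not deviate together (r = -0.053 to 0.075).

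Thinning to the lowest total called 217, 2739 and 2648 genes in the same order, and leaving out BMDM_H replicates 3 and 4 left 179 genes and 1 member in BMDM_T against BMDM_H. Leaving out single libraries gave 239 (without BMDM_H replicate 2) to 409 genes and 0 to 1 members for BMDM_T against BMDM_H, 4107 to 4451 genes and 5 to 6 members for TAM against BMDM_T, and 3814 to 4297 genes and 5 to 6 members for TAM against BMDM_H. Scaling by total counts shifted the median log2 fold change of all genes to -0.12, 0.17 and 0.06, with 156 higher and 218 lower calls in BMDM_T against BMDM_H, where TMM gave 212 and 150.

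Only values near 0 that were not called changed sign. Bcl2 in BMDM_T against BMDM_H was -0.12 without BMDM_H replicates 3 and 4, and Bid ran from -0.16 to 0.11 without single libraries. In TAM against BMDM_T, Bak1 was 0.14 with total counts, 0.023 with limma-voom, 0.15 with the replicate block and 0.045 after thinning, and -0.23 to 0.16 without single libraries. Mcl1 was -0.033 without the filter, -0.019 with limma-voom, -0.070 with the replicate block, -0.029 with only the compared groups, -0.010 without BMDM_H replicates 3 and 4, and -0.22 to 0.18 without single libraries. Of 1010 values of named pathway genes, 991 kept their call, 19 lost it and 0 changed sign. These genes were named because they were called with the smallest p in the same data. Some of them passed the filter through TAM or marrow alone, so the kept calls are no support. Most of the lost calls were in BMDM_T against BMDM_H. The causes were not tested.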
